A study of Rattus norvegicus and Bos taurus with 6 samples.

Results

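The passage of fatty acids from blood lipoproteins into fat was followed with 9 genes in 6 single-nucleus RNA sequencing (snRNAseq) libraries of rat and cow adipose tissue. The genes were chosen by name and matched by gene symbol in any case: Lpl, Gpihbp1, Cd36, Fabp4, Fabp5, Slc27a1, Vldlr, Angptl4 and Rbp7. Of these 9 genes, 8 were matched among 25629 genes in the 10x library, 8 among 38697 genes in each rat Parse library, and 9 among 36075 genes in the cow library. Rat Cd36 was not analysed here. The 5 rat libraries came from male SS/HsdMcwiCrl (Dahl SS) rats on a normal diet, housed at 22 °C. They were mesenteric perivascular adipose tissue (mesPVAT) on the 10x platform, and mesPVAT, retroperitoneal (RP) fat, PVAT of the thoracic aorta (taPVAT) and brown adipose tissue (BAT) from the subscapular depot on the Parse platform. The Parse cow library came from flank subcutaneous white adipose tissue (WAT) of lactating, clinically healthy Holstein cows on a lactation diet. All tissue was normal and snap frozen, ages were not given, and the number of animals behind a library was not given. Each condition was 1 library, so no difference could be tested and all intervals (exact, 95%) cover counting error only. Depot, animal and library cannot be told apart, nor can species, sex, lactation stage, diet, reference genome and library for the cow. By the paper's methods, taPVAT nuclei were spun at a lower speed than those of rat and cow white fat. No speed is stated there for BAT. Only cow samples passed an additional, finer filter. These steps cannot be told apart from depot or species. The 10x library was batch 1 and the 5 Parse libraries were batch 2. The 10x nuclei were also isolated by an earlier protocol and sorted on DAPI, and another reference genome is named for them. Platform, nuclei protocol, sort, genome and batch thus cannot be told apart either. Whether the labels of the mesPVAT and RP fat libraries on Parse were exchanged with each other could not be settled, so values given for either depot on Parse are those of the library so labelled.

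In adipose tissue, lipoprotein lipase is made mainly by adipocytes, but it acts on the luminal face of capillaries, where GPIHBP1 on the endothelial cell carries and anchors it. ANGPTL4 inactivates the lipase, and VLDLR binds triglyceride-rich particles. The released fatty acids cross the endothelium and the adipocyte membrane with the help of CD36 and the transport protein FATP1 (Slc27a1), and are bound in the cytosol by FABP4 and FABP5. RBP7 is a cytosolic retinol-binding protein of the same protein family. In brown fat the fatty acids also fuel heat production through UCP1.

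Levels are given as CPM: the unique molecular identifiers (UMIs) of a gene, summed over nuclei and scaled to 1e6 UMIs of those nuclei. CPM is not scaled to gene length, so levels are compared between libraries or cell classes and not between genes. The libraries held from 2297 to 5887 nuclei and from 845316 to 16827260 UMIs, with medians from 161 UMIs per nucleus in 10x mesPVAT to 3530 in cow WAT. No nuclear barcode was shared between libraries. Nuclei with a UMI of Plin1 or Adipoq and none of Ptprb or Pecam1 were taken as adipocyte-marker nuclei, and the converse as endothelial-marker nuclei. The cow adipocyte class rested on PLIN1 alone. There were from 209 to 1445 adipocyte-marker and from 179 to 822 endothelial-marker nuclei in a library. Nuclei with both kinds of marker were kept apart; they made up 17.5% of BAT and 16.2% of taPVAT nuclei, and no doublet caller was run.

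The classes were checked on genes that did not define them. In BAT, 7 adipocyte genes (Cidec, Plin4, Lipe, Pparg, Lep, Acaca and Ucp1) were from 2.52-fold to 14.4-fold higher in adipocyte-marker nuclei, and 6 endothelial genes (Cdh5, Tek, Flt1, Tie1, Emcn and Egfl7) were from 28.1-fold to 51.2-fold higher in endothelial-marker nuclei. In the cow, 5 of the adipocyte genes were from 12.0-fold to 35.7-fold higher in adipocyte-marker nuclei, and the 6 endothelial genes from 10.6-fold to 86.8-fold higher in endothelial-marker nuclei. The separation was weaker in the white rat Parse libraries, though not for every gene. Among 4 adipocyte genes with at least 20 UMIs in RP fat, the ratio was 1.15 to 4.58. In Parse mesPVAT, Lep was 19.0-fold, Plin4 11.7-fold and Cidec 9.28-fold higher in adipocyte-marker nuclei, and Lipe, Acaca and Pparg had ratios of 1.55, 1.49 and 1.08. Ucp1 was the lowest there, at 53.8 CPM in adipocyte-marker and 57.4 CPM in endothelial-marker nuclei, while the 10x mesPVAT library held 1 Ucp1 UMI in all. The 6 endothelial genes were from 3.4-fold to 12.8-fold higher in endothelial-marker nuclei of Parse mesPVAT. In 10x mesPVAT, 5 adipocyte genes had ratios from 1.83 to 8.23, and Cidec had 128 and 0 UMIs. There, 5 endothelial genes were from 11.7-fold to 29.5-fold higher in endothelial-marker nuclei. The part of RNA from other nuclei or libraries in the values below was not tested.

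The upstream sequences of the genes that lay farthest to either side in BAT are shown, Angptl4 for the adipocyte side and Rbp7 for the endothelial side. They are the 250 bases before the start that the RefSeq promoter table gives each gene (GRCr8, minus strand), at chr7:15258682-15258931 for Angptl4 and chr5:165177400-165177649 for Rbp7. RefSeq's whole span of each gene reaches farther upstream than that start, to position 15259971 for Angptl4 and 165177427 for Rbp7, so the window lies within the span of Angptl4 and overlaps that of Rbp7. Such a sequence was found for 5 of the 9 genes (Cd36, Slc27a1, Vldlr, Angptl4 and Rbp7). Capitals mark matches on either strand to TATAAA, to the nuclear receptor motif AGGTCA and to the GC box CCGCCC.
Angptl4: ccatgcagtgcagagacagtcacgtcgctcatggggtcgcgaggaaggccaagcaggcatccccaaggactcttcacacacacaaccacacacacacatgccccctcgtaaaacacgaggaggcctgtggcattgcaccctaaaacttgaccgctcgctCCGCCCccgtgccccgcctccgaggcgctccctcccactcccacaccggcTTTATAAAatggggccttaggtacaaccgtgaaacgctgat
Rbp7: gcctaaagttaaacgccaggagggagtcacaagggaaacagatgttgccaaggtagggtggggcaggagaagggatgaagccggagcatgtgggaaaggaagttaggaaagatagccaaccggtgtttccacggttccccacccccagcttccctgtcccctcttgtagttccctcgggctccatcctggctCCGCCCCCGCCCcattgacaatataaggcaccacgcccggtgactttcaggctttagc
TATAAA and its reverse complement overlapped in the Angptl4 sequence, and neither was found in that of Rbp7. Over 33469 RefSeq promoters, 12.9% held TATAAA or its complement in this window. CCGCCC had 1 match in Angptl4 and 2 adjacent matches in Rbp7, and was in 30.5% of all promoters. AGGTCA was in neither sequence and in 14.1% of all promoters.

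Lpl was the member that was more than 2-fold higher in adipocyte-marker nuclei in each of the 6 libraries. The Lpl level was 1273 CPM in 10x mesPVAT, 349 CPM in Parse mesPVAT, 221 CPM in RP fat, 1898 CPM in taPVAT, 2082 CPM in BAT and 263 CPM in cow WAT. The order ran BAT, taPVAT, 10x mesPVAT, Parse mesPVAT, cow WAT, RP fat, and each neighbouring pair differed beyond counting error. BAT stood only 1.10-fold (1.07 to 1.13) above taPVAT.

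**Figure D1:**
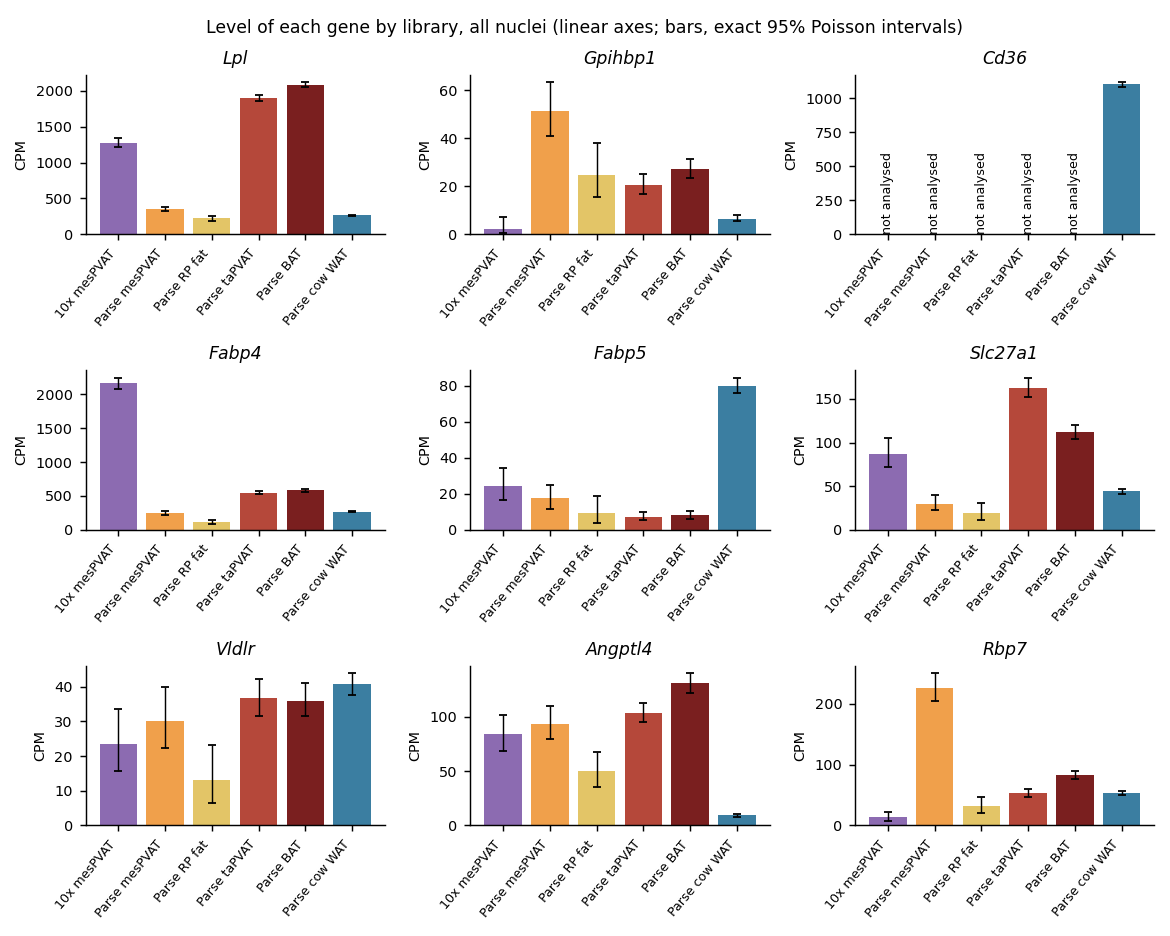
Level of each gene in CPM (y axis, linear) over all nuclei of each of the 6 libraries (x axis); bars are the level and error bars exact 95% Poisson intervals. Lpl reaches 2082 CPM in BAT and 1898 in taPVAT, Fabp4 2158 in 10x mesPVAT, Rbp7 226 in Parse mesPVAT and Fabp5 80.2 in cow WAT; rat Cd36 was not analysed.

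Within libraries, Lpl was higher in adipocyte-marker than in endothelial-marker nuclei. The levels were 2467 against 306 CPM in taPVAT, a ratio of 8.05 (6.79 to 9.62), and 2569 against 378 CPM in BAT, a ratio of 6.80 (5.94 to 7.83). In cow WAT they were 540 against 68.1 CPM, a ratio of 7.92 (7.06 to 8.90). In the white rat libraries the Lpl ratio was 3.55 (2.36 to 5.59) in 10x mesPVAT, 2.21 (1.70 to 2.90) in Parse mesPVAT and 2.58 (1.39 to 5.05) in RP fat. The ratios of the brown libraries and the cow were thus the higher ones, and their intervals lay above those of the 3 white rat libraries. The check genes were also less well separated in the white rat Parse libraries. Endothelial check genes there were 3.4-fold to 12.8-fold higher in endothelial-marker nuclei of Parse mesPVAT and 2.1-fold to 4.2-fold in RP fat, against 28.1-fold to 51.2-fold in BAT. The part of this separation in the Lpl ratios was not tested.

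The Lpl signal of endothelial-marker nuclei did not exceed that of other non-adipocyte nuclei in the brown libraries beyond counting error. In BAT it was 378 CPM, beside 477 CPM in nuclei with a mural marker (Notch3 or Acta2), 475 CPM in nuclei with the immune marker Ptprc and 1127 CPM in 31 nuclei with a stromal marker (Pdgfra or Dcn). In taPVAT it was 306 CPM, beside 439 CPM in mural-marker, 407 CPM in stromal-marker and 237 CPM in immune-marker nuclei. In cow WAT the endothelial level of 68.1 CPM was level with the 70.3 CPM of stromal-marker nuclei. It was 1.85-fold above the 36.8 CPM of mural-marker nuclei. At a depth thinned to 200 UMIs per nucleus, however, the shares with an LPL UMI overlapped. They were 0.730% (0.268 to 1.58) of endothelial-marker and 0.585% (0.0148 to 3.22) of mural-marker nuclei, the latter from 1 nucleus. By nuclei, 90.1% of BAT adipocyte-marker nuclei (median 2044 UMIs) and 31.3% of endothelial-marker nuclei (median 1042 UMIs) held an Lpl UMI. Thinned to 200 UMIs per nucleus, these shares were 37.1% (34.6 to 39.6) and 7.06% (4.81 to 9.92).

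At that common depth the share of all nuclei with an Lpl UMI was 27.8% in BAT, 22.3% in taPVAT, 20.7% in 10x mesPVAT, 6.31% in Parse mesPVAT, 3.39% in RP fat and 2.13% in cow WAT. Thinning left out 3788 of 5887 nuclei of 10x mesPVAT, 476 of Parse mesPVAT and 1302 of RP fat, and none of the others. Before thinning, the cow share was 21.5%, close to the 20.7% of the much shallower 10x library.

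Angptl4, the secreted inhibitor of the lipase, lay on the same side as Lpl in the rat. Its level was 84.0 CPM in 10x mesPVAT, 93.6 in Parse mesPVAT, 49.7 in RP fat, 104 in taPVAT, 131 in BAT and 9.33 CPM in cow WAT. Neighbours in this order from taPVAT through Parse to 10x mesPVAT did not differ beyond counting error. The cow level was 5.33-fold (3.70 to 7.53) below RP fat, the lowest rat library. Angptl4 was 15.9-fold (7.27 to 43.6) higher in adipocyte-marker than in endothelial-marker nuclei of BAT (169 against 10.6 CPM), from 578 and 6 UMIs, and 14.3-fold (5.52 to 52.7) higher in taPVAT, from 343 and 4 UMIs. These were the largest adipocyte-side ratios among the 8 rat members in those libraries. In cow WAT the interval of the Angptl4 ratio (0.738 to 2.23) included 1, from 21 and 45 UMIs, and in Parse mesPVAT it was 1.99 (1.26 to 3.22).

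**Figure D2:**
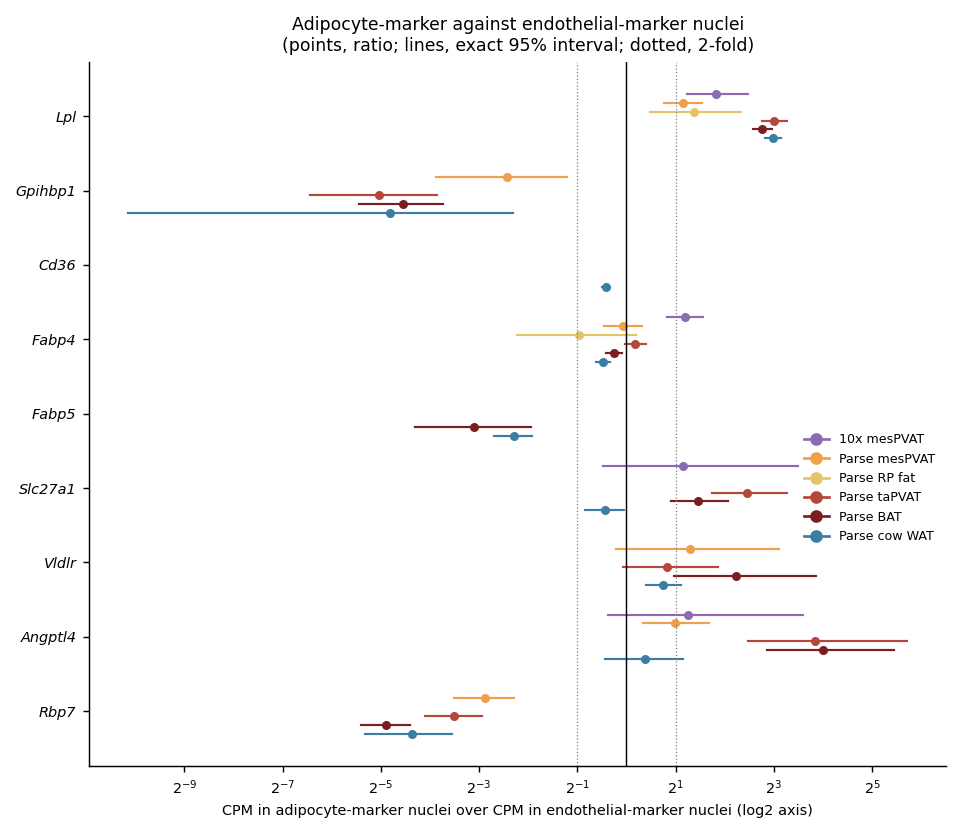
Ratio of the CPM in adipocyte-marker nuclei to that in endothelial-marker nuclei (x axis, log2 scale) for each gene (y axis) in each library (colour), where both classes together held at least 20 UMIs; points are ratios, lines exact 95% intervals and dotted lines mark 2-fold. Lpl points lie to the right of 1 in all 6 libraries (2.21 to 8.05), Gpihbp1 and Rbp7 points to the left in all 4 libraries shown, and Fabp4 between 0.509 and 1.13 in the Parse libraries but at 2.27 in 10x mesPVAT.

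Gpihbp1, the capillary anchor of the lipase, was a sparse gene and lay on the endothelial side. It was at 51.3 CPM in Parse mesPVAT, 27.2 in BAT, 24.8 in RP fat, 20.8 in taPVAT and 6.6 CPM in cow WAT, and 3 UMIs were found in 10x mesPVAT (2.42 CPM). RP fat, from 21 UMIs, did not differ from BAT or taPVAT beyond counting error, while BAT stood 1.31-fold (1.02 to 1.69) above taPVAT. Gpihbp1 was 32.6-fold (14.4 to 86.6) higher in endothelial-marker nuclei of taPVAT (86.2 against 2.64 CPM, from 38 and 7 UMIs), and 23.4-fold (13.4 to 43.5) higher in those of BAT (110 against 4.67 CPM, from 62 and 16 UMIs). In Parse mesPVAT the endothelial level was 5.41-fold (2.32 to 14.6) higher. In cow WAT 79 UMIs lay in endothelial-marker and 1 UMI in adipocyte-marker nuclei, a ratio of 28.3 (4.93 to 1131). The opposite placing of the lipase and its anchor was thus seen in each of these 4 libraries, and RP fat (2 and 0 UMIs) and 10x mesPVAT (1 and 0 UMIs) held too few Gpihbp1 UMIs in these classes to compare.

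Rbp7 was the other gene on the endothelial side in each of those 4 libraries. Its level was 13.7 CPM in 10x mesPVAT, 226 in Parse mesPVAT, 31.9 in RP fat, 52.9 in taPVAT, 82.6 in BAT and 53.4 CPM in cow WAT. Parse mesPVAT stood 2.74-fold (2.39 to 3.13) above BAT, and cow WAT and taPVAT did not differ beyond counting error. Rbp7 was higher in endothelial-marker nuclei by 29.7-fold (21.3 to 42.2) in BAT, with 373 against 12.5 CPM. The difference was 11.4-fold (7.64 to 17.3) in taPVAT, 7.36-fold (4.90 to 11.4) in Parse mesPVAT, and 20.5-fold (11.7 to 39.9) for the cow, with 118 against 5.77 CPM. In RP fat 5 and 2 UMIs were too few to compare. In the cow, 27.9% of endothelial-marker nuclei held an RBP7 UMI (median 4354 UMIs), beside 4.31% of adipocyte-marker nuclei (median 4978 UMIs). At 200 UMIs per nucleus the shares were 2.43% (1.49 to 3.73) and 0.478% (0.0121 to 2.64), the latter from 1 nucleus.

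Fabp4, the main cytosolic fatty acid-binding protein of adipocytes, was found on both sides. Its level was 2158 CPM in 10x mesPVAT, 247 in Parse mesPVAT, 116 in RP fat, 549 in taPVAT, 583 in BAT and 267 CPM in cow WAT. Cow WAT and Parse mesPVAT did not differ beyond counting error, and the other neighbours did. In the Parse libraries the adipocyte to endothelial ratio did not pass 2-fold in either direction. It was 1.13 (0.980 to 1.32) in taPVAT, 0.839 (0.751 to 0.94) in BAT, 0.951 (0.729 to 1.24) in Parse mesPVAT, 0.509 (0.213 to 1.14) in RP fat and 0.721 (0.652 to 0.797) in cow WAT. Unlike that of Lpl, the endothelial Fabp4 level of BAT, 664 CPM, lay well above the 178 CPM of stromal-marker, 297 CPM of immune-marker and 162 CPM of mural-marker nuclei. In the cow it was 332 CPM in endothelial-marker nuclei, 34.5 CPM in stromal-marker, 226 CPM in immune-marker and 233 CPM in mural-marker nuclei. The 10x library differed: 2795 CPM in adipocyte-marker and 1231 CPM in endothelial-marker nuclei gave a ratio of 2.27 (1.77 to 2.95), and the stromal-marker, immune-marker and mural-marker nuclei there stood at 803, 1307 and 1344 CPM, so the endothelial level was not above those of the immune-marker and mural-marker nuclei.

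Fabp5, a related binding protein, was low in the rat (7.45 to 24.2 CPM) and 80.2 CPM in cow WAT, 3.31-fold (2.31 to 4.93) above the next library, 10x mesPVAT. The 5 rat libraries did not differ from their neighbours in the order beyond counting error, but taPVAT and BAT were below Parse mesPVAT, with ratios of 0.426 (0.256 to 0.716) and 0.461 (0.287 to 0.755). It lay on the endothelial side in the libraries with enough UMIs. FABP5 was 4.91-fold (3.79 to 6.48) higher in endothelial-marker nuclei of cow WAT (144 against 29.3 CPM), and Fabp5 was 8.57-fold (3.86 to 19.7) higher in those of BAT, from 17 and 12 UMIs.

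Cd36, the fatty acid translocase, was read in the cow alone. CD36 stood at 1102 CPM (1086 to 1118), with a UMI in 60.0% of nuclei and, at 200 UMIs per nucleus, in 13.4%. It was 1274 CPM in endothelial-marker and 947 CPM in adipocyte-marker nuclei, a 1.34-fold difference (1.28 to 1.41), and 223 CPM in stromal-marker nuclei, 5.71-fold below the endothelial level. The thinned shares were 19.5% (16.8 to 22.3) of endothelial-marker, 9.57% (5.94 to 14.4) of adipocyte-marker and 1.52% (0.315 to 4.39) of stromal-marker nuclei. Mural-marker nuclei stood at 862 CPM and 11.7%, and immune-marker nuclei at 1446 CPM and 9.93%, so among the 5 classes CD36 was low in stromal-marker nuclei alone.

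Slc27a1, which encodes the transport protein FATP1, was 163 CPM in taPVAT, 112 in BAT, 87.3 in 10x mesPVAT, 44.0 in cow WAT, 30.2 in Parse mesPVAT and 18.9 CPM in RP fat. All neighbours but the last pair differed beyond counting error. It was 5.47-fold (3.34 to 9.64) higher in adipocyte-marker nuclei of taPVAT (199 against 36.3 CPM) and 2.74-fold (1.87 to 4.18) higher in those of BAT. In cow WAT it was slightly lower in them, 33.2 against 44.9 CPM, a ratio of 0.738 (0.558 to 0.966). The rat brown and cow libraries thus lay on opposite sides of 1, a difference that was not tested.

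Vldlr, a receptor for triglyceride-rich lipoproteins, lay between 13.01 CPM in RP fat and 40.7 CPM in cow WAT, and no neighbours in its order differed beyond counting error. RP fat, from 11 UMIs, was nevertheless below the other rat Parse libraries, by 2.82-fold (1.54 to 5.74) against taPVAT, 2.76-fold (1.51 to 5.61) against BAT and 2.32-fold (1.19 to 4.94) against Parse mesPVAT. Its adipocyte to endothelial ratio was 4.66 (1.95 to 14.6) in BAT, from 141 and 5 UMIs, 2.45 (0.858 to 8.56) in Parse mesPVAT, 1.77 (0.954 to 3.64) in taPVAT, and 1.68 (1.31 to 2.15) for the cow.

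Members past 2-fold were counted beside all genes with at least 20 UMIs in the 2 classes. In taPVAT, 3 of 7 members with 20 UMIs were at least 2-fold higher in adipocyte-marker nuclei (Lpl, Slc27a1 and Angptl4), against 15.3% of all genes, and 2 (Gpihbp1 and Rbp7) were at least 2-fold higher in endothelial-marker nuclei, against 26.7%. In BAT, 4 of 8 members were higher in adipocyte-marker nuclei, against 20.6% of genes, and 3 in endothelial-marker nuclei, against 22.8%. In cow WAT 1 of 9 was higher in adipocyte-marker nuclei (8.65% of genes) and 3 in endothelial-marker nuclei (14.8%). In Parse mesPVAT 2 of 6 (Lpl and Vldlr, the latter with an interval that included 1) were higher in adipocyte-marker (8.31%) and 2 in endothelial-marker nuclei (14.6%). In RP fat 1 of 2 was higher in adipocyte-marker nuclei (7.58%) and 0 in endothelial-marker nuclei (7.63%). In 10x mesPVAT 4 of 4 were higher in adipocyte-marker nuclei (25.1%) and 0 in endothelial-marker nuclei (16.6%). The intervals of Slc27a1 and Angptl4 there, each from 3 endothelial UMIs, included 1. The 20 UMIs were counted over both classes, and adipocyte-marker nuclei there held 362399 UMIs against 55233 in endothelial-marker nuclei. Members thus passed mainly through the adipocyte class. Below the limit, Fabp5 (7 and 6 UMIs) was 5.62-fold (1.56 to 19.5) higher in endothelial-marker nuclei. Rbp7 (4 and 3 UMIs) was 4.92-fold (0.721 to 29.1) higher, an interval that included 1. The counts of 4 and 0 are therefore not a result about the members.

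These counts were made without the nuclei with both kinds of marker. With such nuclei placed in both classes, no member was 2-fold higher in adipocyte-marker nuclei in Parse mesPVAT, taPVAT, BAT or cow WAT, where the log2 ratio of Lpl fell to 0.77, 0.60, 0.53 and 0.99. That choice puts the same nuclei on both sides, which draws ratios towards 1 whatever the gene. In BAT such nuclei held 1956764 UMIs, against 566446 in endothelial-marker nuclei. The fall therefore cannot show how far the reported counts depend on leaving them out. Those nuclei held a large share of the UMIs: 31.0% of all UMIs in BAT, 50% of its Gpihbp1 UMIs, 45.8% of its Rbp7 UMIs and 29.6% of its Lpl UMIs, and in cow WAT 49.3% of the LPL UMIs. With Adipoq and Pecam1 as the only markers, the adipocyte-side count was 1 in taPVAT and 2 in BAT. The share of all genes under either choice is not given, so whether members moved more than other genes was not tested.

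**Figure D3:**
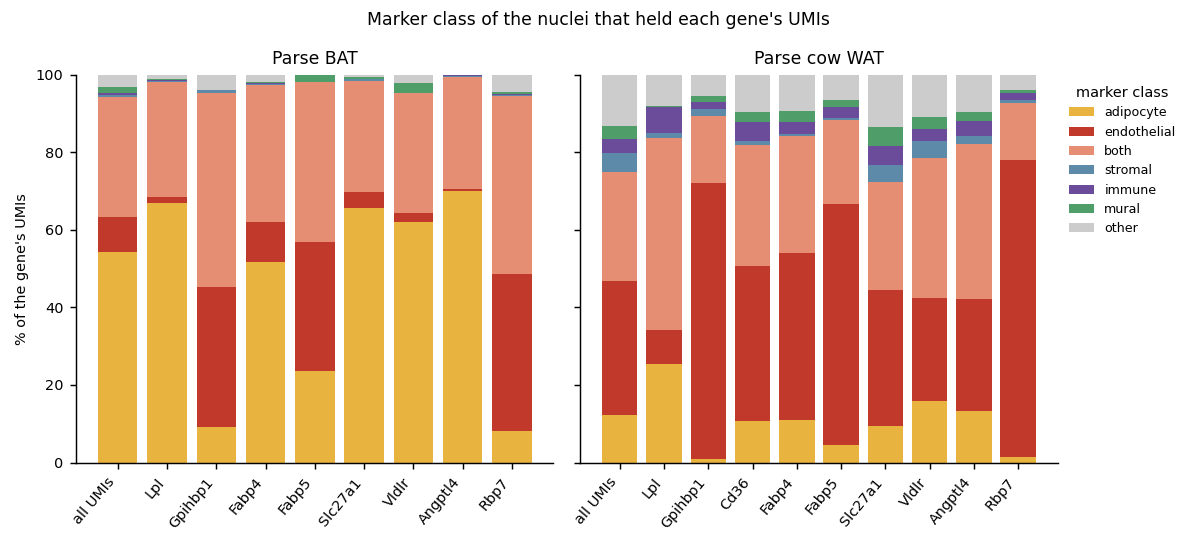
Share of each gene's UMIs (y axis, percent) that came from nuclei of each marker class (colour) in BAT (left) and cow WAT (right), beside the share of all UMIs in the first bar; "both" are nuclei with adipocyte and endothelial markers. In BAT, adipocyte-marker nuclei held 66.9% of Lpl and 9.30% of Gpihbp1 UMIs, and in cow WAT endothelial-marker nuclei held 71.2% of GPIHBP1 and 76.6% of RBP7 UMIs.

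Across depots, 3 of the 8 rat members were at least 2-fold higher in both brown than in both white Parse libraries, against 5.54% of genes, and 0 were at least 2-fold lower, against 47.4% of genes. Taking the lower brown library over the higher white one, Lpl was 5.44-fold, Slc27a1 3.71-fold and Fabp4 2.22-fold higher. Angptl4 (1.11-fold) and Vldlr (1.19-fold) were close to level on this measure. For Rbp7, Gpihbp1 and Fabp5 the brown and white ranges overlapped or ran the other way. In the paper, the knee plots of Parse mesPVAT and RP fat lacked a clear inflection point. The paper took this as a sign that true nuclei were hard to separate from background RNA there. The part of background RNA in the brown and white difference was not tested. The brown libraries also held more adipocyte-marker nuclei (46.0% and 53.5% of nuclei, against 19.6% and 9.27%), so a larger share of adipocytes and more RNA per adipocyte cannot be told apart in these sums. Nor can the lower spin speed of taPVAT be told apart from its depot.

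Within adipocyte-marker nuclei the same order held for Lpl, with 2467 and 2569 CPM in the brown libraries and 550 and 391 CPM in the white Parse ones. In 10x mesPVAT, a white depot on the other platform, Lpl was 1542 CPM in these nuclei. Fabp4 was 2795 CPM there, above the 540 and 557 CPM of taPVAT and BAT. The white Parse classes were less clean, however. The 6 adipocyte check genes other than Ucp1 summed to 3621 CPM in Parse mesPVAT and 1091 CPM in RP fat, against 4237 in taPVAT and 4312 in BAT. The 6 endothelial genes summed to 247 and 453 CPM in those white classes, against 141 and 106 CPM. The part of class purity in the Lpl difference was not tested. Slc27a1 in adipocyte-marker nuclei was 199 and 136 CPM in the brown and 31.8 and 41.2 CPM in the white Parse libraries, the latter from 13 and 4 UMIs. In 10x mesPVAT it was 121 CPM, from 44 UMIs. Angptl4 did not share the order: it was 130 and 169 CPM in brown and 171 and 124 CPM in white adipocyte-marker nuclei. Inside the brown libraries, adipocyte-marker nuclei with a Ucp1 UMI were compared with those without. Lpl was 2.00-fold (1.82 to 2.21) higher with Ucp1 in taPVAT and 1.67-fold (1.53 to 1.84) higher in BAT, while the Fabp4 intervals (0.798 to 1.09 and 0.968 to 1.36) included 1. Slc27a1 (1.94, 1.26 to 3.13) and Angptl4 (1.82, 1.25 to 2.75) were higher with Ucp1 in BAT, and in taPVAT their intervals included 1. The Ucp1-positive nuclei were deeper (median 2088 against 885 UMIs in taPVAT), and the part of depth or background in the difference was not tested. Rbp7 ran the other way in BAT, with 43.2 CPM (13 UMIs) in 242 nuclei without and 9.60 CPM (30 UMIs) in 1203 nuclei with a Ucp1 UMI. In taPVAT its ratio with to without Ucp1 was 0.79 (0.328 to 2.31), an interval that included 1.

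The mesPVAT libraries of the 2 platforms differed in 5 of 8 members by at least 2-fold. Of these, 3 were higher on 10x, against 22.6% of genes, and 2 lower, against 32.8%. Differences of this size were thus common over all genes, and the count of 5 is not a result about the members. Fabp4 was 8.72-fold (7.86 to 9.70), Lpl 3.65-fold (3.32 to 4.02) and Slc27a1 2.89-fold (2.05 to 4.13) higher on 10x. Rbp7 was 16.5-fold (10.2 to 28.6) higher on Parse, from 375 and 17 UMIs, and Gpihbp1 21.2-fold (7.0 to 105), from 85 and 3 UMIs. Fabp5, Vldlr and Angptl4 did not differ beyond counting error. The higher genes on 10x were thus adipocyte-side genes or Fabp4, and the lower ones were the endothelial-side Rbp7 and Gpihbp1. This split by side was not complete. Angptl4 and Vldlr, on the adipocyte side in BAT, and Fabp5, on the endothelial side there, did not differ between the platforms. Lpl and Fabp4 were also higher on 10x within each of the adipocyte, endothelial, stromal, immune and mural classes. For example, Lpl was 1329 against 357 CPM in stromal-marker and Fabp4 1307 against 125 CPM in immune-marker nuclei. Summed, the 6 adipocyte check genes other than Ucp1 were also higher on 10x in these classes. They stood at 5552 against 3621 CPM in adipocyte-marker and 1648 against 950 CPM in endothelial-marker nuclei. In stromal-marker, immune-marker and mural-marker nuclei the sums were 941.5, 1513 and 2091 CPM, against 604, 644 and 483 CPM. The part of class purity or background RNA in the Lpl and Fabp4 differences was not tested. Adipocyte-marker nuclei were 23.3% of nuclei on 10x and 19.6% on Parse. Endothelial-marker nuclei were 3.18% of nuclei on 10x and 13.9% on Parse. The median depth was 161 and 346 UMIs per nucleus, and 69.8% and 55.2% of nuclei were in no marker class. The part of depth in these shares was not tested. Within endothelial-marker nuclei, Rbp7 was 54.3 CPM on 10x, from 3 UMIs, and 504 CPM on Parse.

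In the cow, immune-marker nuclei held LPL at a level near that of adipocyte-marker nuclei. LPL was 475 CPM in 151 immune-marker nuclei and 540 CPM in adipocyte-marker nuclei, a ratio of 0.880 (0.771 to 1.00). The adipocyte genes did not follow: Cidec, Plin4, Lipe, Lep and Acaca were from 8.81-fold to 30.4-fold lower in immune-marker than in adipocyte-marker nuclei. CD36 was 1446 CPM, 1.53-fold (1.41 to 1.65) above the adipocyte-marker level. The LPL signal was uneven, with 35 of 151 nuclei holding a UMI and 44.9% of the 294 UMIs in the 5 highest nuclei. In nuclei with an LPL UMI, CD36 was 4.28-fold (3.69 to 4.99), FABP4 4.14-fold (2.83 to 6.18) and FABP5 3.65-fold (1.74 to 8.17) higher than in immune-marker nuclei without one, and those nuclei were deeper (median 5680 against 2375 UMIs). The part of depth or of more than 1 nucleus per barcode in this was not tested. In BAT and taPVAT, Lpl in immune-marker nuclei was 5.41-fold and 10.4-fold below the adipocyte-marker level. In the shallow white rat libraries the ratio was 0.758 (0.439 to 1.22) in 10x mesPVAT and 0.605 (0.34 to 1.00) in Parse mesPVAT, from 17 and 16 immune-marker UMIs, and a difference from the cow was not tested. In 10x mesPVAT, however, Lpl was as high in stromal-marker (1329 CPM) and mural-marker (1195 CPM) as in immune-marker nuclei (1169 CPM). In the cow the stromal-marker and mural-marker levels were 70.3 and 36.8 CPM.

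**Figure D4:**
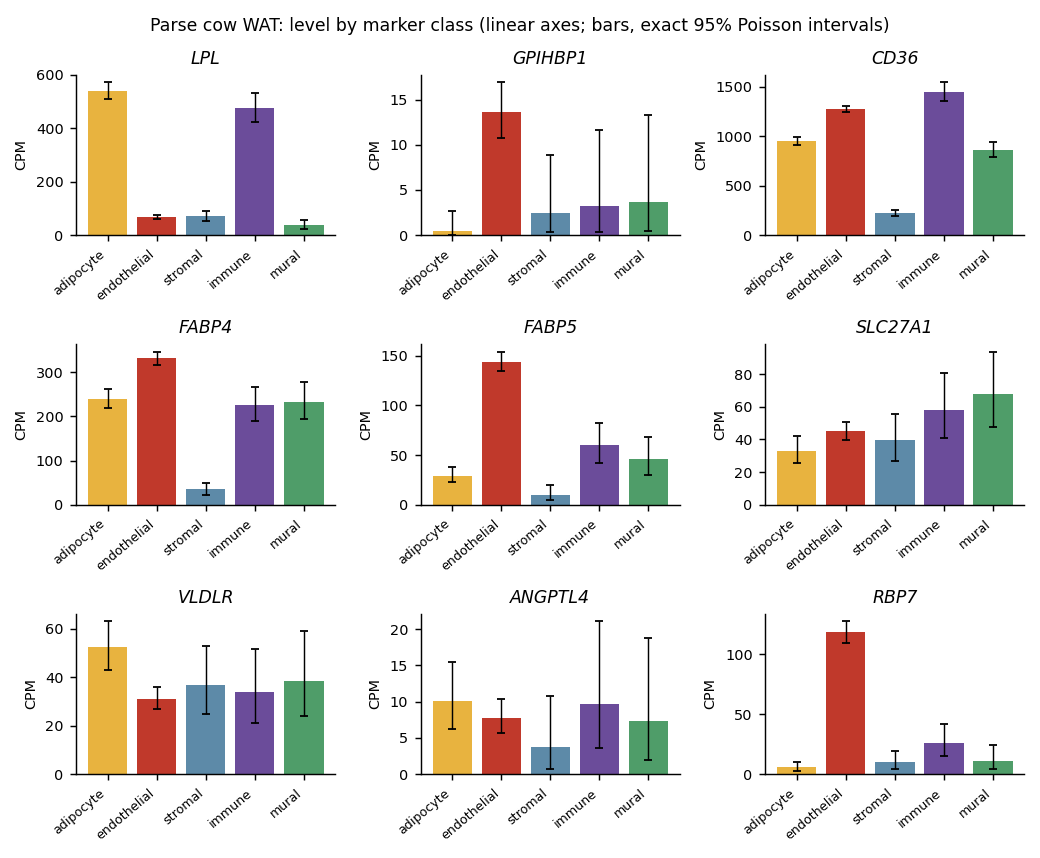
Level in CPM (y axis, linear) of each gene in nuclei with adipocyte, endothelial, stromal, immune or mural markers (x axis) of cow WAT; error bars are exact 95% Poisson intervals. LPL is about as high in immune-marker (475) as in adipocyte-marker nuclei (540), CD36 is low in stromal-marker nuclei (223), and RBP7, GPIHBP1 and FABP5 are highest in endothelial-marker nuclei.

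Endothelial-marker nuclei were then split by Rbp7, to see which members went with it. In the cow, 229 endothelial-marker nuclei held an RBP7 UMI and 593 did not. CD36 was 1836 CPM with and 889 CPM without RBP7, a ratio of 2.06 (1.97 to 2.16). FABP4 had a ratio of 2.08 (1.90 to 2.28) and FABP5 one of 2.32 (2.01 to 2.67). SLC27A1 (0.811, 0.622 to 1.05), VLDLR (0.840, 0.611 to 1.15) and LPL (0.975 to 1.46) had intervals that included 1. In the rat, Fabp4 was also higher in Rbp7-positive nuclei, by 1.45-fold (1.18 to 1.79) in BAT, 1.56-fold (1.13 to 2.13) in taPVAT and 1.83-fold (1.21 to 2.74) in Parse mesPVAT. Gpihbp1 was 1.80-fold (1.06 to 3.06) higher in Rbp7-positive nuclei of BAT, and in taPVAT, Parse mesPVAT and the cow its interval included 1. Lpl was 1.71-fold (1.05 to 2.75) higher with Rbp7 in Parse mesPVAT, and its intervals in BAT and taPVAT included 1.

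Rbp7-positive nuclei were deeper in the cow (median 6681 against 3799 UMIs). They were also deeper in BAT (1171 against 978.5), taPVAT (911.5 against 857) and Parse mesPVAT (697.5 against 464.5). Other endothelial genes are not given for this split, so whether Rbp7-positive nuclei were purer endothelial nuclei was not tested. The split was repeated among endothelial-marker nuclei of middle depth (the 25th to 75th percentile, a choice made after the values were seen). In the cow, where the medians were then 4658 and 4201 UMIs, the ratio was 2.39 (2.21 to 2.59) for CD36. It was 2.33 (2.01 to 2.70) for FABP4 and 2.82 (2.26 to 3.50) for FABP5. LPL fell to 0.0868 (0.0103 to 0.327) there, from 2 and 63 UMIs. The Fabp4 ratio was 1.84 (1.32 to 2.56) in BAT, 1.97 (1.25 to 3.04) in taPVAT and 1.62 (0.747 to 3.30) in Parse mesPVAT. Gpihbp1 in BAT had a ratio of 3.01 (1.35 to 6.91) at middle depth, and SLC27A1 in the cow one of 0.536 (0.243 to 1.07). Lpl in taPVAT went from 0.862 (0.525 to 1.36) to 1.34 (0.686 to 2.48). In Parse mesPVAT Lpl had a ratio of 1.71 (0.64 to 4.19) at middle depth, an interval that included 1.

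**Figure D5:**
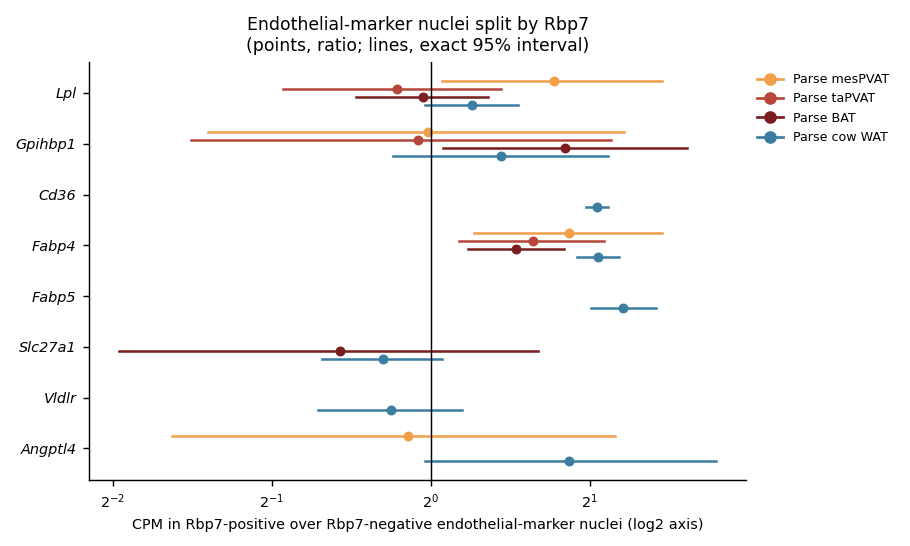
Ratio of the CPM in endothelial-marker nuclei with an Rbp7 UMI to that in those without (x axis, log2 scale), for each gene (y axis) and each Parse library (colour), where there were at least 20 UMIs with some on both sides; lines are exact 95% intervals. RP fat had 0 and 20 Fabp4 UMIs and is not drawn, nor is 10x mesPVAT, with 3 Rbp7-positive nuclei. Fabp4 lies to the right of 1 in all 4 libraries shown (1.45 to 2.08), as do CD36 (2.06) and FABP5 (2.32) in the cow, while SLC27A1 and VLDLR span 1.

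By vessel markers, Rbp7 in BAT was 410 CPM in endothelial-marker nuclei with an arterial marker (Gja5, Sox17 or Efnb2), 410 CPM in those with none of the vessel markers, and 145 CPM in those with Ackr1, Selp or Vwf, nuclei with markers of more than 1 set being left out. The ratio of the second to the third was 2.82 (1.44 to 6.32). In 5 nuclei with the lymphatic markers Prox1 or Mmrn1 it was 1302 CPM, from 9 UMIs in 2 nuclei. In taPVAT the Rbp7 level was 219 CPM with an arterial marker, 187 CPM with none and, from 1 UMI, 22.7 CPM with Ackr1, Selp or Vwf. Parse mesPVAT did not share this order: Rbp7 was 652, 516 and 635 CPM there, with no pair of these that differed beyond counting error. In the cow RBP7 was 124 CPM with ACKR1, SELP or VWF and 104 CPM with an arterial marker, which did not differ beyond counting error. It was 55.5 CPM with none, and 1 UMI was found in the 23 nuclei with a lymphatic marker. CD36 in the cow was 1668, 982, 786 and 204 CPM in the same order, so the lymphatic-marker nuclei were 8.17-fold (5.71 to 12.1) below those with ACKR1, SELP or VWF. The nuclei with no vessel marker were shallower (median 2444 against 4306 UMIs).

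Other genes of the pathway were taken from 6 lists. Of 12 symbols listed for genes that handle the lipase, Pcsk3 and Furin name the same gene. In each of taPVAT, BAT and cow WAT, 11 were matched and 7 had 20 UMIs. The counts higher in adipocyte-marker nuclei were 3, 3 and 1, and higher in endothelial-marker nuclei 2, 2 and 0. Over all genes, 15.3%, 20.6% and 8.65% were higher in adipocyte-marker and 26.7%, 22.8% and 14.8% in endothelial-marker nuclei of these libraries, and the counts of the other lists are to be read beside the same shares. Lmf1, needed for folding of the lipase, had an adipocyte to endothelial ratio of 2.37 in taPVAT and 2.68 in BAT, and 1.44 in the cow. Pcsk6, a protease that can cleave the lipase, was 3.83 and 2.71 in the brown libraries and 0.876 in the cow, and Sel1l was between 0.786 and 0.874 in the 3.

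Of 6 lipoprotein receptors and heparan sulphate proteins, 5, 4 and 5 had 20 UMIs, and 1 was higher in adipocyte-marker nuclei in each of taPVAT, BAT and cow WAT, and 4, 2 and 0 in endothelial-marker nuclei (all genes, 26.7%, 22.8% and 14.8%). Lrp1, a broad lipoprotein receptor, had ratios of 2.87, 6.10 and 1.52. Scarb1, the HDL receptor, was 16.6-fold, 14.8-fold and 1.86-fold higher in endothelial-marker nuclei. Hspg2, which encodes perlecan, was 2.03-fold, 1.79-fold and 1.32-fold higher in them. Of 10 further transport proteins and acyl-CoA synthetases, 8, 7 and 8 had 20 UMIs, and 5, 4 and 2 were higher in adipocyte-marker nuclei and 1, 1 and 2 in endothelial-marker nuclei (all genes, 15.3%, 20.6% and 8.65% against 26.7%, 22.8% and 14.8%). Acsl1, which traps fatty acids as acyl-CoA, was from 5.56-fold to 15.4-fold higher in adipocyte-marker nuclei in the 6 libraries. Slc27a2 was 24.0-fold and 17.0-fold higher in them in the brown libraries and had a ratio of 0.279 (0.0545 to 0.898) in the cow, from 3 and 30 UMIs. Acsl4 had ratios of 2.99, 2.06 and 1.72.

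Of 5 other binding proteins, 4, 3 and 3 had 20 UMIs, and 2, 3 and 1 were higher in adipocyte-marker nuclei and 0, 0 and 2 in endothelial-marker nuclei (all genes, 15.3%, 20.6% and 8.65% against 26.7%, 22.8% and 14.8%). Fabp3, the heart-type member, was 3.88-fold and 7.48-fold higher in adipocyte-marker nuclei of taPVAT and BAT and 2.37-fold lower in the cow. Rbp4 was 2.52-fold, 2.54-fold and 12.7-fold higher in them. Of the 4 caveolar genes, 4 were higher in endothelial-marker nuclei in each brown library, and 1 of 3 in the cow, against 26.7%, 22.8% and 14.8% of all genes. Cav1 was 4.45-fold higher in taPVAT and 7.67-fold in BAT, Cavin1 4.71-fold, 4.82-fold and, in the cow, 6.41-fold, and Cavin2 had ratios of 0.399, 0.214 and 0.643. Of 8 genes of capillary control, 6, 7 and 7 had 20 UMIs, and 2, 2 and 2 were higher in adipocyte-marker and 2, 4 and 3 in endothelial-marker nuclei (all genes, 15.3%, 20.6% and 8.65% against 26.7%, 22.8% and 14.8%). Flt1, a VEGF receptor, was 23.2-fold, 51.2-fold and 21.7-fold higher in endothelial-marker nuclei, and its partner Nrp1 1.48-fold, 2.23-fold and 1.43-fold. Pparg, the adipocyte regulator, was 3.57-fold and 2.52-fold higher in adipocyte-marker nuclei of the brown libraries.

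In the white rat libraries these lists had few genes with 20 UMIs. Of the 12, 6, 10, 5, 4 and 8 symbols listed, such genes numbered 4, 3, 2, 1, 3 and 5 in Parse mesPVAT, 1, 3, 1, 0, 0 and 3 in RP fat, and 1, 4, 5, 1, 3 and 5 in 10x mesPVAT. Of the 3 caveolar genes in either mesPVAT library, 0 were 2-fold higher in either class, unlike in the brown libraries. All genes stood at 8.31% and 14.6% on Parse and 25.1% and 16.6% on 10x. In Parse mesPVAT, Cavin2 had an adipocyte to endothelial ratio of 1.74 (1.04 to 3.02). The intervals of Cav1 (0.914) and Cavin1 (0.734) there included 1. Over all nuclei, 1, 1, 3, 2, 0 and 3 genes of the lists were at least 2-fold higher in both brown than in both white Parse libraries (5.54% of all genes), and 1, 1, 2, 2, 0 and 1 lower (47.4%), of 8, 5, 9, 5, 4 and 8 with 20 UMIs.

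The genes with the most similar pattern were sought over 20 profiles, the 5 marker classes of each of the 4 rat Parse libraries, by Pearson correlation of log2(CPM + 10). The profiles share libraries and depth, so the values are a description. For Lpl they were Gphn (r = 0.879), Adra1a, Sik3, Ppargc1b and Cpt1b (0.842). For Fabp4 the second was Lipe (0.824), the hormone-sensitive lipase, and the fourth Mgll (0.782), the monoacylglycerol lipase. For Slc27a1 they included Thrb (0.831) and Cidea (0.806), and for Angptl4 Tcea3 (0.790), Abcd2 (0.743) and Plin4 (0.702). Rbp7 was most like Pde2a (0.808) and Itga6 (0.782), and Gpihbp1, after an unnamed gene, most like Heg1 (0.815). Vldlr reached 0.724, with Dmpk. Fabp5 was left out, with 68 UMIs in these profiles.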

How the data were processed

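UMIs were measured per gene and nucleus in 6 snRNAseq libraries. The authors deposited raw UMI counts of the barcodes called as nuclei, without normalization: split-pipe v1.5.1 with GRCr8 or ARS-UCD1.3 for the Parse libraries, after splitting reads by species, and Cell Ranger 7.1.0 for the 10x library, for which the methods name Rnor_6.0. The submitters' processing notes also name FastQC and Scanpy. The 10x nuclei were isolated by an earlier protocol and sorted on DAPI. In its own analysis the study called doublets and removed nuclei under 100 transcripts, over 15000 reads, over 4500 genes, over 3% mitochondrial reads or far from the medians; here the 4 limits, without the last step, were an alternative only.

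All deposited nuclei were used, and groups came from the labels. Parse mesPVAT and RP fat are named as labelled. The genes and the pathway lists were chosen with earlier results of these data known. UMIs were summed over nuclei and scaled to CPM, with exact Poisson intervals for sums, exact (Clopper-Pearson) binomial intervals for shares and exact conditional intervals for ratios, at 95%. UMIs of 1 nucleus are not independent, so these cover counting error only. A count of 0 allows up to 3 counts, from 0.178 CPM in cow WAT to 3.55 CPM in RP fat over all nuclei. Ratios needed 20 UMIs over both sides, with 2-fold as the limit for a count. The marker genes were left out of the background counts. For stromal-marker, immune-marker and mural-marker nuclei, the markers were Pdgfra or Dcn, Ptprc, and Notch3 or Acta2, in nuclei with no adipocyte or endothelial marker. Nuclei were thinned to 200 or 500 UMIs with the seed 20. All 9 genes are named. In each pathway list, the 3 genes with the most UMIs are named, except for an item that is not reported here, and the most similar genes were the 5 highest correlations among genes at 50 CPM or more on average, for members with at least 100 UMIs. No test between conditions was made, since each condition had 1 library. The interval and count steps were run on simulated independent Poisson counts of the BAT contrast. That setting leaves out the clumping of UMIs within nuclei, so it cannot show how the intervals behave under it. The work used Python 3.11.15 and matplotlib 3.10.9, with pandas 2.3.3, scipy 1.17.1 and numpy 2.4.6.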

Additional observations from a re-analysis of the deposited data

Results flagged for a closer look

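Slc27a1 was on the adipocyte side in both rat brown libraries and slightly lower in adipocyte-marker than in endothelial-marker nuclei of the cow. Its adipocyte to endothelial ratio was 5.47 for taPVAT, 2.74 for BAT and 0.738 for cow WAT, each with an interval that left out 1. In the cow it was not highest in endothelial-marker nuclei: mural-marker nuclei stood at 68.0 CPM, 1.5-fold (1.04 to 2.14) above the endothelial 44.9 CPM. With 1 library per condition, the difference was not tested.

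The rat Parse libraries have a gene named Cd36-ps1, marked by its name as a pseudogene of Cd36, whose reads may not be separable from a near-identical copy. It is not one of the 9 genes and was read after its values were seen. Its level was 106 CPM in Parse mesPVAT, 55.6 CPM in RP fat, 347 CPM in taPVAT and 388 CPM in BAT, all above the limit that a count of 0 allows. In the 10x library the same identifier, named RGD1565355 there, stood at 456 CPM. In BAT it was 533 CPM in endothelial-marker, 359 CPM in adipocyte-marker and 66.8 CPM in mural-marker nuclei, and no UMI was found in 31 stromal-marker nuclei.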

How the results depend on the processing

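Counts of members past 2-fold gave 131 of 157 alternative values within 1.5 times the reported ones. The share of all genes called under each alternative is not given. Whether the members moved more than other genes was therefore not tested. Placing nuclei of both kinds in both classes draws ratios towards 1 whatever the gene. For 10x mesPVAT the adipocyte-side count of 4 was 2 with nuclei of at least 500 UMIs, with at least 2 marker UMIs and with Adipoq and Pecam1 alone, and 1 at 3-fold. For Parse mesPVAT the adipocyte-side count of 2 was 1 in either sublibrary, with 50 UMIs per gene and with Adipoq and Pecam1 alone, and 0 at 3-fold and with nuclei of both kinds placed in both classes, and its endothelial-side count of 2 was 1 in sublibrary 2, with 50 UMIs per gene and with Adipoq and Pecam1 alone. For RP fat the adipocyte-side count of 1 was 0 in sublibrary 2, at 3-fold and with Adipoq and Pecam1 alone, and the endothelial-side count of 0 was 1 without the 10 deepest nuclei and with Plin1 and Ptprb alone. For taPVAT the endothelial-side count of 2 was 1 with 50 UMIs per gene, and the adipocyte-side count of 3 was 1 with Adipoq and Pecam1 alone and 0 with nuclei of both kinds in both classes. For BAT the adipocyte-side count of 4 was 2 and 0 under the same pair of choices. For cow WAT the adipocyte-side count of 1 was 2 under the study's filters and with 2 marker UMIs, and 0 with nuclei of both kinds in both classes. The brown against white counts stayed within 1.5 times of the reported ones under every alternative run. No ratio past 2-fold changed direction. Among 321 alternative log2 ratios, 51 were classed as moved from the reported value, and among 196 alternative CPM values, 36 were. For the counts and values that moved, the cause was not tested. Of 98 thinned shares, 79 left the interval of the unthinned share, most by falling. Some rose in the 3 white rat libraries, where shallower nuclei were left out, such as Lpl and Fabp4 in 10x mesPVAT at 500 UMIs (to 29.4% and 41.6%). Of 14 ratios by Rbp7, 6 left the interval of the reported ratio at middle depth.

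The choice with Adipoq and Pecam1 alone could not be run for the cow, nor a sublibrary for 10x, and the mitochondrial limit had no genes to act on in the cow. Chosen after seeing the data, the library labelled RP fat in place of Parse mesPVAT gave 6 of 8 members at least 2-fold different from 10x. The share of all genes for that pair is not given, so the count is not a result about these members or the labels. No paired analysis was possible because each condition has 1 library and no replicate numbers are shared. Depth limits Gpihbp1, Fabp5, Vldlr and Rbp7 most, with at most 30 UMIs each in 10x mesPVAT and RP fat.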
